A study of Sparus aurata with 9 samples.

Results

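The 111 long non-coding RNAs (lncRNAs) described here are those of the myoblast lncRNA table that averaged at least 1 FPKM over its 9 libraries, with the deposited stand-in of 0.0001 FPKM read as 0. They are 111 of 1489 lncRNAs listed for gilthead sea bream (Sparus aurata) and of 27159 genes in the table of counts. FPKM is the number of sequenced fragments scaled to transcript length and library size. The members were selected on these measured FPKM values, so levels are given below as a description with no test, and the tests concern differences between treatments.

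lncRNAs are transcripts that are processed much like messenger RNAs but carry no recognised protein-coding frame. Single lncRNAs are known to act in the nucleus, by guiding or holding chromatin regulators, or in the cytoplasm, by binding proteins, messenger RNAs or miRNAs, and several take part in the differentiation of mammalian myoblasts. Most are less abundant and less conserved in sequence than messenger RNAs, so a low mean level leaves few fragments to measure. None of the 111 carried a symbol or a description in the files or in the reference table used here, and no function is given to any of them.

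The myoblasts were isolated from fast-twitch muscle of fingerlings and cultured to day 8, when cells were still dividing and the first had begun to fuse. The restriction and treatments below began then, and RNA was taken at their end. Each library thus holds a mixed culture, at a later stage than day 8. CTR cells spent 36 h in a restriction medium without amino acids. AA cells spent 12 h in it and then 24 h in DMEM, a medium that supplies amino acids, with no serum listed. Igf-1 cells spent 12 h in the restriction medium and then 24 h in the same medium without amino acids to which recombinant sea bream Igf-1, an insulin-like growth factor, and its carrier albumin were added. AA and CTR thus differ by the whole medium, and CTR received no albumin as far as the sources used here state. Each group has 3 libraries. The study names 3 independent cultures without saying which library came from which, so p-values measure the spread between these libraries.

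The estimated counts of a library summed to between 48725967 and 67887824, and the scaling factors of edgeR's TMM method ran from 0.791 in CTR replicate 3 to 1.21 in AA replicate 3. Among the members, CTR replicate 3 and AA replicate 2 lay farthest from the other libraries of their groups, with root mean square deviations of 0.616 and 0.492 on the log2 scale, against 0.213 to 0.457 in the other 7. CTR replicate 3 also had the fewest members at or above 1 FPKM, 89 against 94 to 107 in the others. The FPKM values are the authors' and are not scaled by TMM, so a library's FPKM and the fold changes rest on different scales. Of the muscle markers looked for, 13 of 24 symbols were found (15 genes), among them the creatine kinase gene ckma with 112693 to 372620 normalized counts and the myogenic regulator myog with 26924 to 51040. Others of the 15 were near 0, such as desmb with 0 to 37.5 and myf6 with 0 to 42.8 normalized counts.

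Primer sequences designed by the study for quantitative PCR were at hand for 2 of the 111, one whose level was lower and one whose level was higher in response to AA. They are shown because the sources used here hold no other sequence of these transcripts. Each is written 5′ to 3′ and in lower case with nothing marked. The reverse primers belong to the strand opposite to that of the forward primers, so as written they are not stretches of the same strand. No genome of this build was used, so neither lncRNA is given a position.
ENSSAUG00010012549 forward: ggacgctcgctacagattca
ENSSAUG00010012549 reverse: ggtcgtcgggtcacattaca
ENSSAUG00010001802 forward: ggtgtctggccgagctacat
ENSSAUG00010001802 reverse: tcgtctccaccgttgtgactt

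The level of the 111 declined steeply with rank. ENSSAUG00010015132 stood alone over 100 FPKM, 24 members lay between 10 and 100 FPKM, 15 between 5 and 10, 37 between 2 and 5 and 34 between 1 and 2. The median of the members' means was 3.30 FPKM. The members together held 93.8% to 97.3% of the lncRNA FPKM of a library but only 0.389% to 0.508% of all estimated counts. In the AA and Igf-1 libraries, for which FPKM of all genes was at hand, ENSSAUG00010015132 ranked between 119 and 149 among all genes.

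Below ENSSAUG00010015132 and ENSSAUG00010022378, the next 8 members spanned 29.9 to 83.8 FPKM. ENSSAUG00010015789 ranged from 57.2 to 117 FPKM over the 9 libraries, ENSSAUG00010008822 from 61 to 95.6 and ENSSAUG00010023939 from 48.8 to 91.8. ENSSAUG00010013012 averaged 68.5 ± 26.3 FPKM (SD, n = 9) with a range of 36.5 to 116, the widest of these 8 as a ratio. ENSSAUG00010020939 was among the steadiest at 48.2 ± 6.69 FPKM. ENSSAUG00010004283 averaged 41.2 ± 7.5, ENSSAUG00010001050 31.3 ± 5.62 and ENSSAUG00010010514 29.9 ± 3.32 FPKM. None of these 8 passed the test between treatments described below, for which ENSSAUG00010015789 met the p threshold but not the fold threshold.

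**Figure D1:**
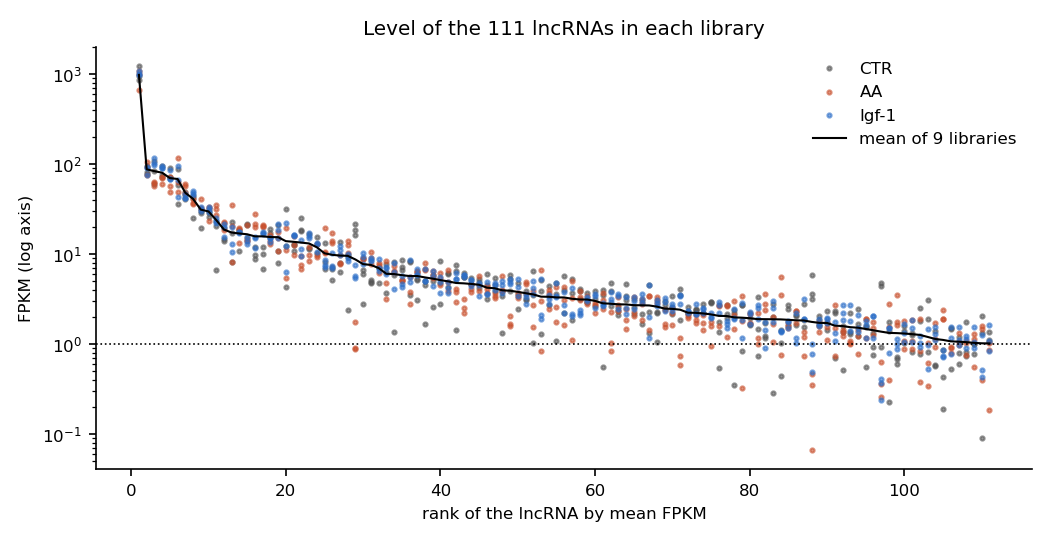
FPKM of each of the 111 lncRNAs in the 9 libraries (log axis) against rank by mean FPKM; points are libraries coloured by group, the black line is the mean of 9 libraries and the dotted line marks 1 FPKM. One lncRNA sits at a mean of 985 FPKM, the next at 87.8 FPKM, and towards the lowest ranks single libraries lie below the dotted line.

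Membership rests on a mean over all 3 groups, which is a property of the rule and not of the lncRNAs. The lowest members were ENSSAUG00010012293 at 1.03 FPKM, ENSSAUG00010001744 and ENSSAUG00010022358 at 1.02 FPKM each, and the nearest lncRNAs outside were ENSSAUG00010019765 at 0.992, ENSSAUG00010002518 and ENSSAUG00010002135 at 0.961 FPKM each. At least 1 FPKM was reached in all 3 group means by 97 members, in 2 by 9 and in 1 by 5. All 111 were above 0 in every library and all passed the filter on low counts. The lowest estimated count of a member in a library was 3 (ENSSAUG00010001744 in CTR replicate 3), and 108 members had at least 12 in every library, where about 4 estimated counts correspond to 1 sequenced pair.

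The length of the members' transcripts was near that of other genes in these files. The exon length implied by the ratio of counts to FPKM had a median of 2059 bases (quartiles 1314 and 3110), beside 2081 bases for the 210 lncRNAs of 0.1 to 1 FPKM and 2281 bases for 12270 other genes at 1 FPKM or more. The longest member was ENSSAUG00010010920 at 11390 bases and the shortest were ENSSAUG00010000341 at 383, ENSSAUG00010013165 at 404 and ENSSAUG00010020939 at 436 bases. The implied length differed by less than 2% between libraries in 97 members and by over 10% in 2, ENSSAUG00010001744 and ENSSAUG00010016074, both with few counts. Across the 111 members, which share libraries and are not independent replicates, length and level were nearly uncorrelated (Pearson's r −0.0355 on log10 values, Spearman's rho −0.00468).

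In response to AA, 16 of the 111 lncRNAs changed relative to CTR, 6 higher and 10 lower. The largest drop was that of ENSSAUG00010016143, which averaged 18.7 ± 2.59 FPKM in CTR and 1.19 ± 0.50 in AA (SD over 3 libraries, n = 3), and the largest rise that of ENSSAUG00010013622, from 0.497 ± 0.345 to 2.07 ± 0.282 FPKM. The 16 are 14.4% of the members, and 8.62% of the 17687 genes tested passed the same rule. Of the 16, 5 were under 1 FPKM in a group mean, ENSSAUG00010013622 among them. These 5 reached the mean of 1 FPKM through a group where they were higher. The choice of members thus favoured such differences, so the shares of members given here are not read as a stronger response than that of all genes. The rule asked for an adjusted p no higher than 0.05 in edgeR's quasi-likelihood test together with a change of 1 or more, in either direction, on the log2 scale. By direction, 5.41% of the members were higher and 9.01% lower, beside 4.83% and 3.79% of all genes tested. At the adjusted p alone 20 members passed, which is 18% against 15.2% of all genes.

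The median log2 fold change of the members in AA was −0.18, beside −0.01 over all genes tested, with 42 members above 0 and 69 below. Their median size was 0.38 against 0.42 over all genes, and 70 of the 111 lay within 0.5 of no change. Among the 204 tested lncRNAs of 0.1 to 1 FPKM, 11 passed (5.39%). Estimated counts there are lower, and the median ratio of SD to mean within groups was 48.0% against 25.5% in the members, so the share of the less abundant lncRNAs is set beside that of the members with no test.

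**Figure D2:**
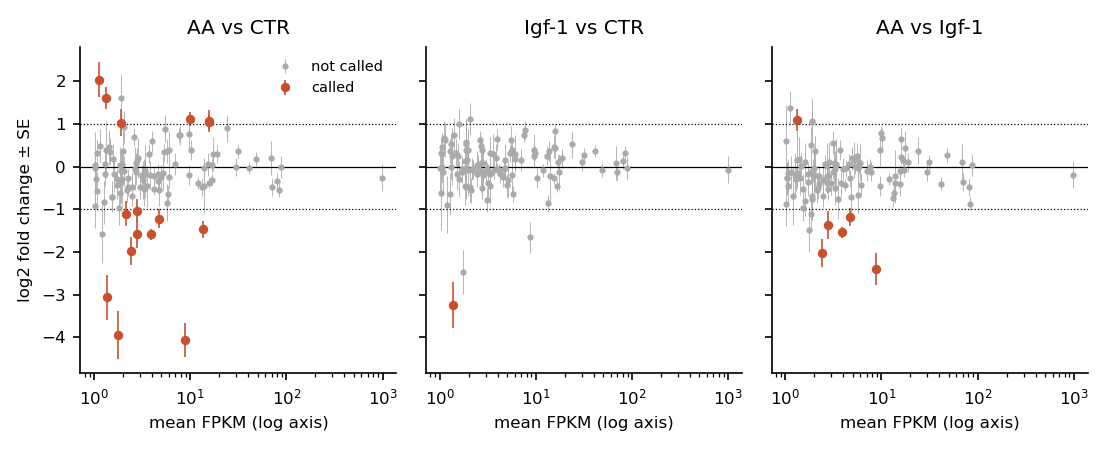
Log2 fold change with its standard error against mean FPKM (log axis) for the 111 lncRNAs in each comparison; orange points were called with edgeR's test (adjusted p no higher than 0.05) and lie beyond the dotted lines at 1 and −1. The 16 called in AA vs CTR reach from −4.06 to 2.04, 1 is called in Igf-1 vs CTR and 6 in AA vs Igf-1.

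The lncRNAs with the 2 largest changes were under 2 FPKM in every AA library. ENSSAUG00010016143 measured 18.5, 16.3 and 21.4 FPKM in CTR replicates 1 to 3, 0.893, 1.77 and 0.911 in AA and 5.78, 7.62 and 5.37 in Igf-1. The groups did not overlap, with Igf-1 between the others, and the drop in AA (log2 fold change −4.06, SE 0.405, adjusted p = 2.07e-04) was called. ENSSAUG00010016074 measured 3.6, 5.94 and 3.22 FPKM in CTR, 0.348, 0.0667 and 0.466 in AA and 0.491, 0.786 and 0.997 in Igf-1. Its groups did not overlap either (log2 fold change −3.94, SE 0.553, adjusted p = 0.00118 for AA), but its lowest library held 6 estimated counts.

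ENSSAUG00010002982 was low in both treated groups. Its libraries measured 4.77, 4.42 and 0.932 FPKM in CTR, 0.361, 0.259 and 0.626 in AA and 0.412, 0.368 and 0.242 in Igf-1. CTR replicate 3 stood well below the other CTR libraries and still above every treated one (log2 fold change −3.06, SE 0.529, adjusted p = 0.00355 for AA). Without CTR replicate 3 the log2 fold change was −3.43.

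In 4 of the 10 lncRNAs that fell, the AA libraries lay below both other groups while Igf-1 and CTR overlapped. ENSSAUG00010015941 measured 5.37, 5.83 and 3.92 FPKM in CTR, 1.67, 1.61 and 2.08 in AA and 5.3, 4.67 and 4.87 in Igf-1 (log2 fold change −1.59, SE 0.137, adjusted p = 1.12e-04 for AA). ENSSAUG00010000237 measured 3.52, 4.1 and 1.86 in CTR, 1.18, 0.58 and 0.732 in AA and 3.46, 3.48 and 2.83 in Igf-1 (log2 fold change −1.98, SE 0.324, adjusted p = 0.00266). ENSSAUG00010017089 measured 6.22, 5.53 and 5.54 in CTR, 3.19, 2.54 and 2.22 in AA and 5.6, 5.94 and 5.89 in Igf-1 (log2 fold change −1.22, SE 0.221, adjusted p = 0.00447). The AA libraries were the 3 lowest of each of these, by a wide gap in ENSSAUG00010015941. ENSSAUG00010012182 measured 3.93, 4.75 and 2.63 FPKM in CTR, 0.84, 1.02 and 2.26 in AA and 3.14, 2.92 and 3.83 in Igf-1 (log2 fold change −1.57, SE 0.328, adjusted p = 0.00944). Its AA replicate 3 came close to CTR replicate 3 in FPKM, but their normalized counts were 128 and 227.

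ENSSAUG00010012549, for which primers are shown above, measured 25.3, 18.5 and 18.1 FPKM in CTR, 9.47, 6.87 and 7.52 in AA and 14.5, 11.3 and 9.54 in Igf-1. Replicate 1 was the highest of each group, and CTR lay above all treated libraries (log2 fold change −1.47, SE 0.206, adjusted p = 0.00114 for AA). The remaining lncRNAs that fell were less certain. ENSSAUG00010023860 measured 3.4, 4.62 and 3.08 FPKM in CTR and 1.48, 1.87 and 2.43 in AA (log2 fold change −1.03, SE 0.266, adjusted p = 0.0254), and its call was lost without CTR replicate 2, CTR replicate 3 or AA replicate 1 (log2 fold changes −0.94, −0.98 and −0.85). It was also lost with DESeq2 (log2 fold change −0.998, adjusted p = 0.0048, short of the fold threshold), in the fit of only AA and CTR and in all 4 limma fits, and in 11 of 20 alternative settings in all. ENSSAUG00010012228 measured 2.95, 2.85 and 2.95 in CTR and 1.76, 1.61 and 0.953 in AA (log2 fold change −1.10, SE 0.298, adjusted p = 0.0311). Its CTR libraries nearly coincided in FPKM, while their normalized counts were 754, 708 and 999. The call was lost when any single library other than AA replicate 2 or Igf-1 replicate 1 was left out, with a log2 fold change of −0.81 to −1.22.

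Of the 6 lncRNAs that rose in response to AA, 3 lay near 10 FPKM or above. ENSSAUG00010015504 measured 6.9, 7.11 and 5.22 FPKM in CTR, 13.2, 14.1 and 17.3 in AA and 10.2, 7.05 and 7.39 in Igf-1 (log2 fold change 1.11, SE 0.16, adjusted p = 0.00136). ENSSAUG00010001802, the other lncRNA with primers shown, measured 11.9, 9.97 and 6.83 in CTR, 20.5, 21.1 and 20.3 in AA and 17.4, 17.1 and 16.9 in Igf-1 (log2 fold change 1.04, SE 0.165, adjusted p = 0.00223). ENSSAUG00010026349 measured 11.9, 8.88 and 9.9 in CTR, 19.9, 27.7 and 21.4 in AA and 11.6, 15.3 and 15.5 in Igf-1 (log2 fold change 1.07, SE 0.256, adjusted p = 0.0179). In all 3 every AA library was above every CTR library. The AA libraries of ENSSAUG00010001802 were within 1 FPKM of each other, but their normalized counts were 2416, 2693 and 1991. CTR replicate 3 was its lowest library, on normalized counts at 1022 beside 1090 in CTR replicate 2. The log2 fold changes of ENSSAUG00010001802 and ENSSAUG00010026349 were close to the threshold of 1. Without CTR replicate 3 and AA replicate 2 together they were 0.87 and 0.95. The call of ENSSAUG00010001802 was lost without either of these libraries (0.99 and 0.94) and that of ENSSAUG00010026349 without CTR replicate 2 or AA replicate 2 (0.92 and 0.81).

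The other 3 that rose were low in CTR. ENSSAUG00010013622 measured 0.87, 0.431 and 0.189 FPKM in CTR, 1.92, 2.4 and 1.9 in AA and 0.746, 0.852 and 0.716 in Igf-1 (log2 fold change 2.04, SE 0.415, adjusted p = 0.00833). ENSSAUG00010015505 measured 0.692, 0.719 and 0.608 in CTR, 1.63, 1.75 and 3.52 in AA and 1.14, 0.876 and 0.993 in Igf-1 (log2 fold change 1.61, SE 0.257, adjusted p = 0.00236). AA replicate 3 was the highest library of ENSSAUG00010015505 by far, and the call held without it (1.32, adjusted p = 0.00613). ENSSAUG00010010920, the longest member, measured 1.17, 1.72 and 1.23 in CTR, 2.42, 3.64 and 2.79 in AA and 0.897, 1.43 and 1.75 in Igf-1 (log2 fold change 1.03, SE 0.308, adjusted p = 0.0483). The call of ENSSAUG00010010920 was lost whichever CTR library was left out, and also without AA replicate 1, AA replicate 2 or Igf-1 replicate 2, with a log2 fold change of 0.74 to 1.20.

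**Figure D3:**
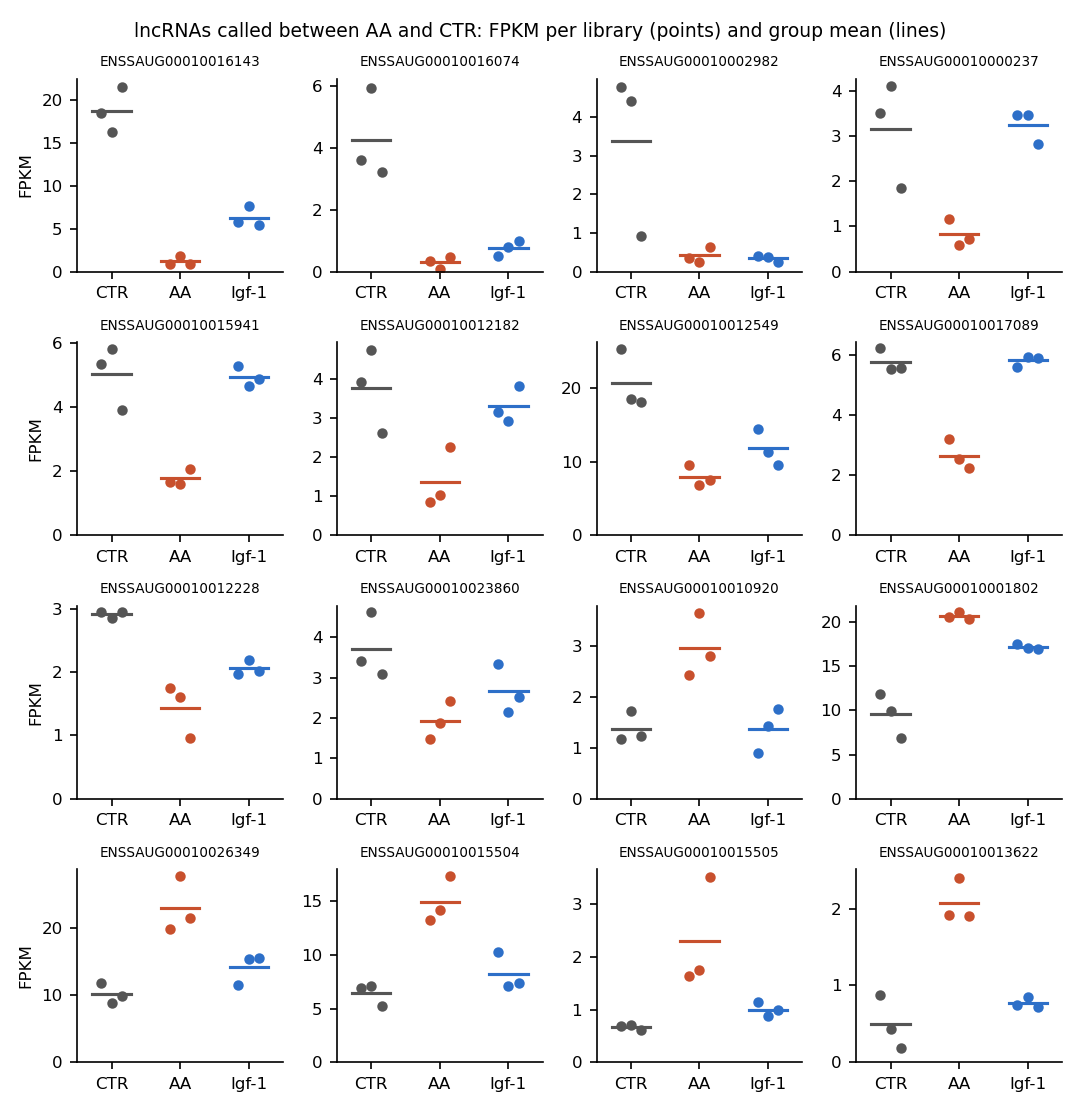
FPKM in each library (points) and group mean (lines) of the 16 lncRNAs called between AA and CTR, ordered from the lowest to the highest log2 fold change, each panel with its own axis from 0. In every panel the 3 AA points lie wholly below or wholly above the 3 CTR points; Igf-1 points range from the CTR level, as in ENSSAUG00010017089, to the AA level, as in ENSSAUG00010002982.

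Of the 16, 11 were at 1 FPKM or more in all 3 group means. The other 5 (ENSSAUG00010000237, ENSSAUG00010016074, ENSSAUG00010002982, ENSSAUG00010015505 and ENSSAUG00010013622) were under 1 FPKM in at least 1 group and reached the mean of 1 FPKM through a group where they were higher, so a difference between groups was favoured by the choice of members. By level, 5 of the 16 were among the 34 members at 1 to 2 FPKM, 6 of 37 at 2 to 5, 2 of 15 at 5 to 10 and 3 of 24 at 10 to 100 FPKM. The study itself names 33 lncRNAs of this table, of which 20 are members and 13 are among the 16; it chose them with these libraries, so their number is no independent evidence. Of the named members that were not called, ENSSAUG00010016280 (log2 fold change 0.74, SE 0.171, adjusted p = 0.015), ENSSAUG00010015789 (−0.55, adjusted p = 0.0386) and ENSSAUG00010008657 (−0.65, adjusted p = 0.0424) met the p threshold without the fold threshold, as did ENSSAUG00010025082 (−0.52, adjusted p = 0.0282), which the study does not name. ENSSAUG00010016209 (0.73, adjusted p = 0.0582) and ENSSAUG00010009596 (−0.47, adjusted p = 0.181) met neither.

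Leaving out CTR replicate 3 and AA replicate 2 together gave 4 higher and 9 lower members, among them 3 of the 6 higher and 9 of the 10 lower calls. DESeq2 called 7 higher and 9 lower, beside 9.99% of all genes, and kept 15 of the 16 calls, all but ENSSAUG00010023860. ENSSAUG00010012549, ENSSAUG00010015504, ENSSAUG00010016143, ENSSAUG00010015941, ENSSAUG00010000237, ENSSAUG00010016074, ENSSAUG00010002982 and ENSSAUG00010013622 passed under all 20 alternative settings of the test. The members were the same in all 20, so these settings cannot show how far the choice of members favoured the last 4 of these calls.

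In response to Igf-1, 1 of the 111 lncRNAs changed relative to CTR. It was ENSSAUG00010002982, which went from 3.37 ± 2.12 to 0.341 ± 0.0883 FPKM (SD, n = 3 each; log2 fold change −3.24, SE 0.534, adjusted p = 0.0446). This is 0.901% of the members beside 0.26% of all genes tested, 0.141% higher and 0.119% lower. ENSSAUG00010002982 reached the mean of 1 FPKM through CTR alone, so its difference was favoured by the choice of members and the share says nothing about the members. None of the members was higher by edgeR's test or by DESeq2, while at an unadjusted p under 0.05 there were 8 higher and 7 lower. No share of all genes at that p was computed, here or for the gene lists below, so such counts are not read as responses. DESeq2 called 3 lower, ENSSAUG00010016143 and ENSSAUG00010016074 in addition, beside 1.34% of all genes. The call of ENSSAUG00010002982 was lost without CTR replicate 1, CTR replicate 2, AA replicate 1 or any one of the Igf-1 libraries, and without CTR replicate 3 and AA replicate 2 together 3 members were called lower and 0 higher.

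By FPKM, the Igf-1 libraries lay wholly above CTR in 11 members and wholly below it in 9, ENSSAUG00010002982 among the latter. The share of all genes with such a separation was not computed, so it is not read as a response. Some of the others are described here, none of which passed. The log2 fold change of ENSSAUG00010001802 was 0.83 (SE 0.164, adjusted p = 0.0742), that of ENSSAUG00010016074 −2.47 (adjusted p = 0.0883) and that of ENSSAUG00010016143 −1.66 (adjusted p = 0.102). ENSSAUG00010016280 measured 5.19, 4.83 and 4.94 FPKM in CTR, 7.75, 9.0 and 10.6 in AA and 9.04, 8.41 and 8.63 in Igf-1, a log2 fold change of 0.75 with Igf-1 (adjusted p = 0.118) and 0.74 with AA. For ENSSAUG00010016209 the values were 0.85 with Igf-1 (adjusted p = 0.194) and 0.73 with AA, for ENSSAUG00010008657 −0.65 (adjusted p = 0.229) and −0.65, and for ENSSAUG00010012549 −0.86 (adjusted p = 0.126) and −1.47. Both comparisons use the same CTR libraries, so such pairs of values are not independent. Over all members the median log2 fold change with Igf-1 was −0.02, with 55 above 0 and 56 below, and its median size was 0.28 beside 0.24 over all genes.

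Compared directly with Igf-1, 6 of the 111 lncRNAs differed in AA, 1 higher and 5 lower, which is 5.41% of the members beside 4.33% of all genes tested (2.43% higher, 1.89% lower). ENSSAUG00010016143 (log2 fold change −2.40, SE 0.382, adjusted p = 0.00458), ENSSAUG00010000237 (log2 fold change −2.03, SE 0.324, adjusted p = 0.0047) and ENSSAUG00010015941 (log2 fold change −1.54, SE 0.137, adjusted p = 5.79e-04) were lower in AA and passed under all 20 alternative settings of the test. ENSSAUG00010012182 (log2 fold change −1.38, SE 0.326, adjusted p = 0.0282) and ENSSAUG00010017089 (log2 fold change −1.18, SE 0.22, adjusted p = 0.00968) were also lower. The call of ENSSAUG00010012182 was lost without AA replicate 1 or 2 or any single Igf-1 library, and that of ENSSAUG00010017089 without AA replicate 3 or Igf-1 replicate 3. ENSSAUG00010015505 was higher in AA (log2 fold change 1.08, SE 0.252, adjusted p = 0.0261), a call lost without AA replicate 3 (log2 fold change 0.80) or any single Igf-1 library. ENSSAUG00010000237 and ENSSAUG00010015505 reached the mean of 1 FPKM through groups where they were higher, so their differences were favoured by the choice of members here too.

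At the adjusted p alone, ENSSAUG00010015789 was also lower in AA than in Igf-1 (log2 fold change −0.87, SE 0.156, adjusted p = 0.00819) and ENSSAUG00010015504 higher (log2 fold change 0.79, SE 0.159, adjusted p = 0.0133), so that 8 members passed, with 8.37% of all genes passing that rule. ENSSAUG00010015789 measured 62.8, 57.2 and 62.3 FPKM in AA and 117, 104 and 98.5 in Igf-1, which did not overlap. CTR, with 108, 83.2 and 60.9, overlapped both in FPKM. On normalized counts, which are scaled by TMM, CTR overlapped neither. It lay at 8313, 6204 and 6215, above AA (5044, 4981 and 4170) and below Igf-1 (8824, 8596 and 8468). Igf-1 against CTR did not pass edgeR's test for this lncRNA (log2 fold change 0.32, adjusted p = 0.601). The direct difference of ENSSAUG00010001802 was 0.21 (adjusted p = 0.535) and that of ENSSAUG00010002982 0.18 (adjusted p = 0.906), and neither passed. Without CTR replicate 3 and AA replicate 2 together, 3 members were higher and 5 lower.

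The members differed widely in their spread between replicates. The ratio of SD to mean FPKM within groups (root mean square over the 3 groups) had a median of 33.0% in the members at 1 to 2 FPKM, 21.4% at 2 to 5, 25.1% at 5 to 10 and 16.7% at 10 to 100 FPKM. The steadiest were ENSSAUG00010012367 (7.21%, 1.93 to 2.57 FPKM over the 9 libraries), ENSSAUG00010022070 (8.88%) and ENSSAUG00010020939 (9.02%). The most variable were ENSSAUG00010017677 (69.8%), ENSSAUG00010001744 (69.5%) and ENSSAUG00010023615 (69.1%). On normalized counts the median over the members was 25.5%, beside 24.8% over all genes tested.

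ENSSAUG00010017677 had 546 estimated counts in its lowest library. It measured 32, 12.3 and 4.31 FPKM in CTR, 19.3, 5.4 and 11.3 in AA and 22.4, 12.3 and 6.41 in Igf-1, with replicate 1 the highest in each group. ENSSAUG00010013012, one of the 10 most abundant members, measured 87.4, 36.5 and 58.8 in CTR, 116, 49.2 and 63.2 in AA and 95.8, 67.2 and 42.7 in Igf-1, again with replicate 1 on top. Replicate 1 had the highest normalized count of all 3 groups in 10 members (9.01%, beside 4.29% of all genes tested), replicate 2 in 3 and replicate 3 in 1. The labels do not say what a replicate number stands for, and none of the 10 but ENSSAUG00010012549 was called between treatments.

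**Figure D4:**
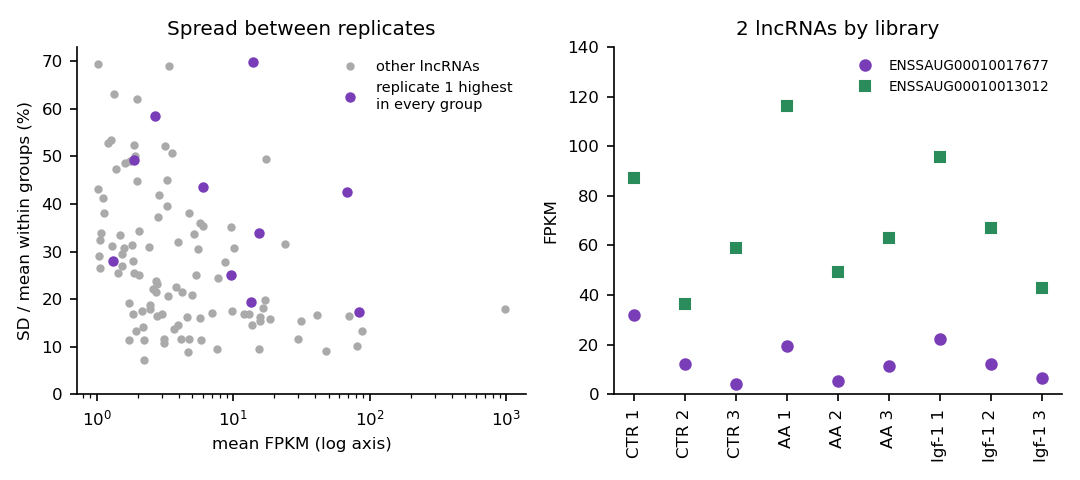
Left, ratio of SD to mean FPKM within groups in percent against mean FPKM (log axis), with the 10 lncRNAs whose replicate 1 was the highest of every group in purple; right, FPKM of 2 of them in each library. ENSSAUG00010017677 reaches 69.8% at a mean of 14.0 FPKM, and in both lncRNAs on the right the library of replicate 1 exceeds the others of its group.

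ENSSAUG00010023615 followed another order, with 3.93, 5.22 and 1.29 FPKM in CTR, 2.99, 0.831 and 6.7 in AA and 5.36, 2.1 and 1.92 in Igf-1. CTR replicate 3 and AA replicate 2 were its lowest libraries within their groups and AA replicate 3 the highest. ENSSAUG00010023212, chosen after its values were seen, had the same order at a higher level, with 17.1, 23 and 8.26 in CTR, 20.7, 8.17 and 35.3 in AA and 20.3, 13 and 10.7 in Igf-1. CTR replicate 3 and AA replicate 2 were both the lowest of their groups, on normalized counts, in 22 members (19.8%, beside 26.6% of all genes tested), and AA replicate 3 was the highest AA library in 25 (22.5%, beside 39.1%).

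Markers of muscle and of other cell types were set beside the lncRNAs. Of all genes tested, 8.62% were called in AA vs CTR and 0.26% in Igf-1 vs CTR, so a single called gene in a list is not read as a response. Of 17 tested pigment cell markers, 6 fell in response to AA, and their summed level was 285 to 475 CPM (counts scaled to library size) in AA against 522 to 665 in CTR and 420 to 660 in Igf-1. Muscle markers summed to 6733 to 9070 CPM in AA, 3308 to 5167 in CTR and 4385 to 5547 in Igf-1, and 4 of 15 rose in response to AA. The muscle sums are weighted by ckma, the most abundant of the 15. It had 253727 to 372620 normalized counts in AA, 112693 to 203081 in CTR and 163859 to 221744 in Igf-1. The higher muscle sums are therefore not read as a rise of the whole list, and sums without ckma were not computed. Leukocyte markers summed to 270 to 380 in AA against 166 to 264 in CTR and 232 to 342 in Igf-1 (1 of 8 rose in response to AA), and endothelial markers to 84.6 to 102 in AA, 113 to 145 in CTR and 94.4 to 104 in Igf-1 (2 of 13 rose and 1 fell in response to AA, 1 fell in response to Igf-1). Under both treatments the endothelial marker that fell was plvapb. Its mean normalized counts were 3929 for CTR, 310 after AA and 897 after Igf-1. The median log2 fold change of the 13 endothelial markers was 0.062 for AA and 0.365 for Igf-1, each relative to CTR. The lower endothelial sums are therefore not read as a fall of the whole list, and sums without plvapb were not computed. Fibroblast markers (1 of 12 fell in response to AA) ranged from 13557 to 17281 CPM over all libraries. Adipocyte markers ranged from 117 to 235 CPM. Neural markers ranged from 36.1 to 56.9 CPM (2 of 11 rose), with elavl3 and elavl4 at 0 in every library. None of 6 adipocyte markers was called in response to AA by edgeR's test or DESeq2, with 2 at an unadjusted p under 0.05. In edgeR's test 1 of them was lower at the adjusted p alone, short of the fold threshold. The part of these shifts in the lncRNA results was not tested, and in bulk RNA fewer cells of a type and less RNA per cell cannot be told apart.

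Genes whose proteins make, bind or degrade non-coding RNA were set beside the lncRNAs. Of 85 tested genes in 6 such lists, 1 rose and 1 fell in response to AA, beside 4.83% and 3.79% of all genes tested. exosc1 (ENSSAUG00010000416), a subunit of the RNA exosome, fell by 1.15 on the log2 scale (SE 0.131, adjusted p = 4.01e-04) and was the only one called of 17 genes of the nuclear exosome. aebp2 (ENSSAUG00010010014), an accessory subunit of polycomb repressive complex 2, rose (log2 fold change 1.11, SE 0.261, adjusted p = 0.0166), the only one called of 8 in that complex. Another entry of the same name, AEBP2 (ENSSAUG00010019252), was more abundant in CTR, with a mean of 739 normalized counts beside 271, and was not called in any comparison. In the other lists edgeR's test called 0 of 14 genes of miRNA processing, 0 of 12 of paraspeckles, 0 of 18 of N6-methyladenosine and 0 of 16 of nonsense-mediated decay, as did DESeq2, with 2, 6, 4 and 5 at an unadjusted p under 0.05. At edgeR's adjusted p alone, 1 gene of paraspeckles, 1 of N6-methyladenosine and 3 of polycomb repressive complex 2, aebp2 included, were higher. At that threshold 1 gene of nonsense-mediated decay was lower, and 15.2% of all genes passed in either direction.

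In response to Igf-1 neither edgeR's test nor DESeq2 called any of the 85, with 8 at an unadjusted p under 0.05. Of all genes, edgeR's test called 0.26% and DESeq2 1.34%. Between AA and Igf-1, 3 of the 85 were higher in AA and 1 lower, beside 2.43% and 1.89% of all genes tested. exosc1 was again lower in AA (log2 fold change −1.12, adjusted p = 0.00122), and aebp2 (1.39, adjusted p = 0.0103) and ezh2 (ENSSAUG00010019950), the methyltransferase of polycomb repressive complex 2 (1.04, adjusted p = 0.0113), were higher. upf3a (ENSSAUG00010004107), of nonsense-mediated decay, was at 0 in all 3 Igf-1 libraries and at 34, 21 and 85 estimated counts in AA, at least 11.7-fold higher with Igf-1 set at 12 counts over the group. The median log2 fold changes in AA against CTR were 0.41 in miRNA processing, 0.31 in paraspeckle proteins, −0.20 in the exosome, 0.35 in polycomb repressive complex 2, 0.07 in N6-methyladenosine and 0.03 in nonsense-mediated decay, beside −0.01 over all genes.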

How the data were processed

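Poly(A) RNA of 9 libraries was sequenced as stranded paired-end reads. The authors trimmed the reads, mapped them with HISAT2 to the Ensembl genome of the species (build not given in the sources used here) and estimated expression with StringTie. The deposited FPKM values are per gene and library, with 0.0001 in place of 0. The deposited table of estimated counts is not scaled to library size, and its values were taken from their spacing as coverage-based, with about 4 counts per sequenced pair. The use of strand in counting is not stated, so reads of an overlapping or antisense gene cannot be told apart from those of a lncRNA. Plain counts had been assumed when the tests were planned, and the tests were run on these estimated counts, which were already whole. The authors' p-values were not used, nor were the tables of genes they selected by them, apart from FPKM and symbols in the table of AA and Igf-1.

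The filterByExpr filter of edgeR 4.0.16, run in R 4.3.3, kept 17687 of 27159 genes, and 401 of those kept were lncRNAs. The 3 groups were fitted together with TMM scaling (common dispersion 0.115) and compared with the quasi-likelihood test, 3 libraries against 3. The p-values of a comparison were adjusted over every tested gene with the Benjamini-Hochberg method. The SE was obtained as the absolute log2 fold change over the square root of F. Normalized counts are scaled to the mean effective library size. Alternatives were RLE size factors, DESeq2 1.42.0, no filter, fits restricted to 2 groups, a replicate block, omission of each library, CTR replicate 3 and AA replicate 2 left out, no fold threshold, counts divided by 4, limma 3.58.1 on log2(FPKM + 0.1) and with pseudocounts of 0.01 and 1 or no filter, and other thresholds for a member. The fits were tested on simulated data.

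Named are the 10 most abundant members, all called members, members named by the study, the 3 on each side of 1 FPKM, the 3 steadiest and the 3 most variable, and called genes of the RNA lists. Outside this rule, ENSSAUG00010025082, ENSSAUG00010023212, ENSSAUG00010000341, ENSSAUG00010013165, ENSSAUG00010004711, ENSSAUG00010020077 and ENSSAUG00010003663 were named after their values were seen. So were the marker genes plvapb, desmb and myf6, and AEBP2 (ENSSAUG00010019252) of the RNA lists. The marker genes ckma, myog, elavl3 and elavl4 were also named outside this rule. The members, lists, tests and alternatives were chosen with earlier results of these data known. Marker lists were matched by symbol for muscle, pigment cells, endothelium, leukocytes, fibroblasts, adipocytes and neural cells, and lists of RNA processing for miRNA processing, paraspeckle proteins, the nuclear exosome, polycomb repressive complex 2, N6-methyladenosine and nonsense-mediated decay. No sequence or position of the members other than the study's primers was used here.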

Additional observations from a re-analysis of the deposited data

How the results depend on the processing

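No alternative turned the direction of a called lncRNA. In AA vs CTR the counts of 6 higher and 10 lower lncRNAs moved by over 1.5 times only where a member had to average 2 FPKM (3 higher). Left out in turn, single libraries gave 4 to 7 higher and 8 to 10 lower. In Igf-1 vs CTR the count of 1 lower lncRNA became 0 in the fit of only the groups compared, with the replicate block, with limma on log2(FPKM + 0.01), with limma without a filter and for members from 2 FPKM. It became 2 with counts divided by 4 or limma on log2(FPKM + 1), and 3 with DESeq2, with limma on log2(FPKM + 0.1) or without CTR replicate 3 and AA replicate 2. The 2 with limma on log2(FPKM + 1) did not include ENSSAUG00010002982, whose call was lost in 11 of 20 alternative settings. Left out in turn, single libraries gave 0 to 3 lower, and 0 higher throughout. In AA vs Igf-1 the 1 higher lncRNA became 0 with the replicate block, in the 4 limma fits and for members from 2 FPKM, 2 in the fit of only the groups compared, with counts divided by 4 or with no fold threshold, and 3 with DESeq2 or without CTR replicate 3 and AA replicate 2. The 5 lower became 3 with limma on log2(FPKM + 1). Left out in turn, single libraries gave 0 to 3 higher and 3 to 5 lower. The cause of these moves was not tested.

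Libraries of the same replicate number were not paired by any label, and their deviations from the group means correlated at −0.39 to 0.218 over all genes, so the numbers were not taken as pairs. Over the 111 lncRNAs the correlations ran from −0.45 to 0.47, with 0.372, 0.47 and 0.415 for the 3 pairs of replicate 1. The replicate block called 5 higher and 8 lower lncRNAs in AA vs CTR, without ENSSAUG00010026349 (log2 fold change 1.05, adjusted p = 0.0534), ENSSAUG00010023860 and ENSSAUG00010012228, and, over all genes, 1283, 0 and 547 in the 3 comparisons, against 1525, 46 and 765 without it. DESeq2 called 1893, 208 and 1017. RLE moved the median of all genes by at most 0.04 on the log2 scale. Each group had 3 libraries, and the median ratio of SD to mean within groups was 33.0% in the lncRNAs at 1 to 2 FPKM.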

Other observations

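Outside the 111, another 21 lncRNAs reached 1 FPKM in at least 1 group mean while their mean over all 9 libraries stayed below 1 FPKM. This choice favours lncRNAs that differ between groups, so the values below are a description. Beside 8.62% of all genes tested, 3 of the 21, named after their values were seen, passed between AA and CTR in edgeR's quasi-likelihood test. ENSSAUG00010004711 measured 0.220, 0.156 and 0.227 FPKM in CTR, 0.720, 1.07 and 1.33 in AA and 0.159, 0.264 and 0.216 in Igf-1 (log2 fold change 2.21 in AA, adjusted p = 0.00906). Its CTR and Igf-1 libraries overlapped and all AA libraries lay above both. ENSSAUG00010020077 measured 0.260, 0.631 and 0.273 FPKM in CTR and 1.74, 0.748 and 2.51 in AA (log2 fold change 1.95, adjusted p = 0.0131), with AA replicate 2 close to CTR replicate 2. ENSSAUG00010003663 was lower in AA, with 0.676, 1.44 and 1.22 FPKM in CTR and 0.152, 0.338 and 0.139 in AA (log2 fold change −2.44, adjusted p = 0.0202). The other 18 of the 21 did not pass.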
